A study of Mus musculus with 16 samples.

Results

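The clustered protocadherin genes were taken as the protein-coding genes named Pcdha, Pcdhb, Pcdhga, Pcdhgb or Pcdhgc with a number. The gene table held 55 of them among 21887 protein-coding genes: 12 alpha genes, 22 beta genes and 21 gamma genes (12 of the A type, 6 of the B type and 3 of the C type). All lie on chromosome 18 of mm10, from 36930285 (the start of Pcdha1) to 37841873 (the last end of the gamma genes), over 0.912 Mb. A gene was counted as marked when a deposited region lay within 1000 bp of any part of it.

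Chromatin immunoprecipitation followed by sequencing (ChIP-seq) was done on immortalized mouse embryonic fibroblasts of 2 lines, both with the transgenes R26M2rtTA/+ and TetOcre, a doxycycline-inducible Cre recombinase. The experimental line was Sdhcfl/fl and the control line Sdhcfl/wt, where fl is an allele that Cre can remove. The product of Sdhc holds succinate dehydrogenase, which turns succinate into fumarate, in the inner mitochondrial membrane. Both lines had doxycycline at 1 µg/mL and were taken at day 16, so the control line also carried Cre activity and a floxed copy. There were 16 samples, 2 per line for input and for each of 3 antibodies, which were raised against succinyllysine (lysine carrying a succinyl group), H3K4me3 (found at active promoters) and H3K27me3 (laid down by Polycomb repressors). The authors deposited 1 region list for the 4 ChIP samples of each antibody, with no height, score or depth. Values per sample and differences between the lines are therefore not analysed here, and each list is a single observation without replicates.

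Clustered protocadherins are adhesion proteins of the cell surface that bind copies of themselves on the next cell, and they are best known for giving single neurons a surface identity. In the alpha and gamma groups each gene has its own promoter and a large variable exon, which encodes the outer part and the membrane span, and this exon is spliced to small exons at the far end that all genes of the group share and that encode the cytoplasmic part. Beta genes consist of a variable exon alone. In neurons a few promoters are picked in each cell with the help of the DNA-binding protein CTCF and the cohesin ring, while the C-type genes nearest the shared exons are used more widely. Expression was not measured in these data.

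This layout decides how the marking rule reads. The annotated alpha genes spanned 167428 to 257373 bp and the gamma genes 22328 to 180096 bp, since every gene ran to the shared exons, while beta genes spanned 2340 to 5271 bp. The 12 alpha genes had 4 distinct ends between 37187657 and 37188897, and the 21 gamma genes 4 distinct ends between 37841863 and 37841873. A region near these ends lies inside every gene of its group and marks all of them at once. Counts for whole genes are therefore followed by counts at each gene's own start (1000 bp on each side), the place of its promoter. The gene table gives no strand or exons, and the lower end was taken as the start because the members of the alpha and of the gamma group share their upper end. For the beta genes, each of which has an end of its own, this rests on the background knowledge that the cluster is transcribed in a single direction, and the count of beta starts depends on it.

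The 3 groups carried different marks when whole genes were counted. All 12 alpha genes had both H3K4me3 and H3K27me3 and none had succinyllysine. All 21 gamma genes had H3K4me3 and succinyllysine and none had H3K27me3. Of the 22 beta genes, 21 had no mark and Pcdhb1 had H3K4me3. Among all protein-coding genes the same rule marked 61.3% with H3K4me3, 20.1% with H3K27me3 and 10.1% with succinyllysine. The cluster as a whole, with 34 of 55 genes for H3K4me3 (61.8%) and 12 of 55 for H3K27me3 (21.8%), was near this background, and succinyllysine with 21 of 55 (38.2%) was above it through a single region. Other genes of the span of beta genes had H3K4me3 in 50.2% of 2350 cases, H3K27me3 in 16.0% and succinyllysine in 6.72%. For genes of the span of alpha genes these shares were 81.9%, 36.6% and 24.3% of 535 genes, and for the span of gamma genes 75.0%, 22.5% and 11.1% of 8222 genes.

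At the starts the picture was sparse. H3K4me3 lay at 9 of 55 protocadherin starts (16.4%, exact Clopper-Pearson 95% interval 7.77 to 28.8), against 55.7% of 17492 outermost starts of other protein-coding genes. The 9 were 8 of 21 gamma genes (38.1%, interval 18.1 to 61.6), 1 of 22 beta genes (4.55%, interval 0.115 to 22.8) and 0 of 12 alpha genes. The intervals cover counting error alone, and neighbouring members are not independent. No member had succinyllysine or H3K27me3 at its start (0 of 55 for each, interval 0 to 6.49), while these marks lay at 4.88% and 10.6% of the other starts. The 4.88% for succinyllysine lies inside that interval, so the count does not set the members apart for this mark. No test was made of these shares, since each list is a single observation.

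**Figure D1:**
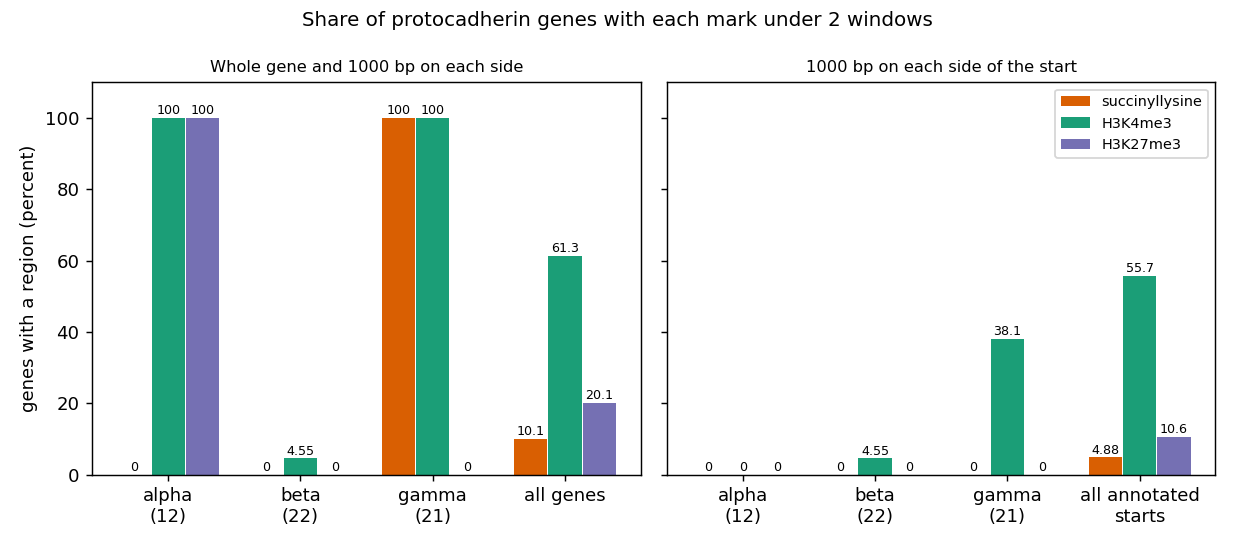
Share of alpha (12), beta (22) and gamma (21) protocadherin genes with a region of each mark (percent of genes), for whole genes with 1000 bp on each side (left) and for starts with 1000 bp on each side (right), beside all protein-coding genes and the outermost annotated starts. The bars at 100% on the left fall to 0% for alpha genes and to 38.1% (H3K4me3) and 0% (succinyllysine) for gamma genes at the starts.

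Within the cluster, 41 regions were listed: 21 of H3K4me3, 12 of H3K27me3 and 8 of succinyllysine. They were mostly narrow. The H3K4me3 regions had a median width of 400 bp against 1100 bp in the whole list, the H3K27me3 regions 400 bp against 600 bp, and the succinyllysine regions 200 bp against 300 bp. H3K4me3 covered 2.31% of the cluster (1.87% of all chromosomes), H3K27me3 0.581% (3.28%) and succinyllysine 0.395% (0.278%). On chromosome 18 these marks covered 1.62%, 2.12% and 0.262%. The cluster's shares include regions at Taf7, a gene outside the family between the beta and gamma genes. These were H3K4me3 regions of 3000 and 700 bp and an 800 bp succinyllysine region. The coverage was uneven: H3K4me3 covered 7.38% of the gamma stretch, 1.04% of the alpha stretch and 0.195% of the beta stretch. H3K27me3 covered 1.47% of the alpha stretch, 0.156% of the beta stretch and none of the gamma stretch.

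**Figure D2:**
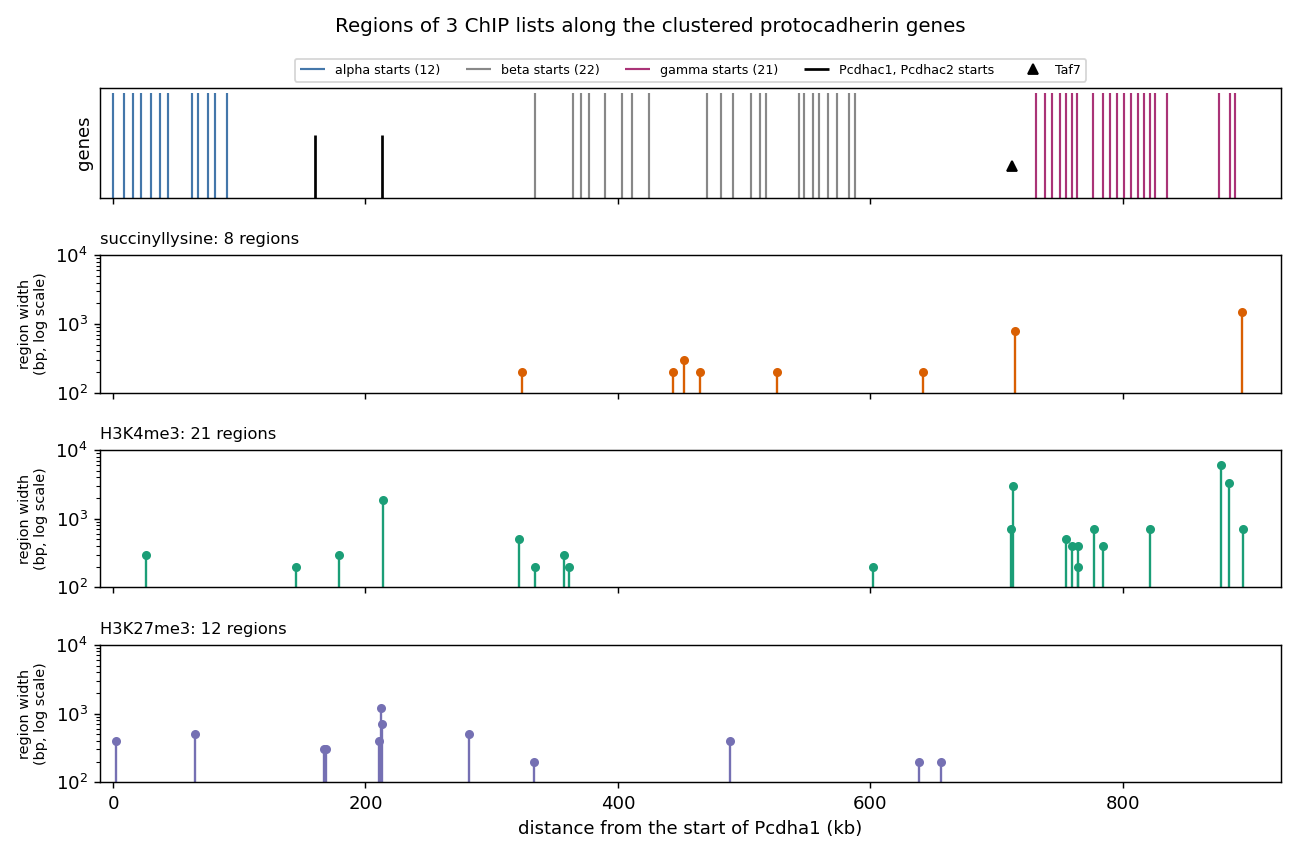
Map of the cluster by distance from the start of Pcdha1 (kb), with gene starts on top and below them each region of the 3 lists as a line whose height is its width (bp, log scale). The H3K4me3 regions of 6000 and 3300 bp stand at the C-type gamma genes at the right, H3K27me3 is listed mainly on the left, and most beta starts stand apart from any region.

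The alpha genes had no region of any mark within 1000 bp of a start. In the stretch from Pcdha1 to the start of Pcdha12, which holds all 12 variable starts, 3 regions were listed. A 400 bp H3K27me3 region (36932601 to 36933000) lay 2316 bp after the start of Pcdha1, the first gene of the cluster. A 300 bp H3K4me3 region (36956201 to 36956500) lay 3512 bp after the start of Pcdha4. A 500 bp H3K27me3 region (36995301 to 36995800) lay between Pcdha8 and Pcdha9, 2080 bp before the start of Pcdha9. Pcdha12, the last of the group (start at 37020230), had none in its first 5000 bp.

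The marks that all alpha genes shared lay further on, at the C-type alpha genes. Pcdhac1 and Pcdhac2 belong to the same group and use the same shared exons, but their names fall outside the rule. At the start of Pcdhac2 (37143678) a 1900 bp H3K4me3 region (37143001 to 37144900) covered the start. H3K27me3 regions of 1200 bp (37141601 to 37142800) and 700 bp (37142801 to 37143500) abutted each other just before this start, and the second shared 500 bp with the H3K4me3 region. A further 400 bp H3K27me3 region ended 2578 bp before the start. Both marks thus met at this promoter, which was the only overlap of H3K4me3 and H3K27me3 in the cluster. The list does not tell whether they lay on the same chromosomes, in different cells or in different lines. Pcdhac1 had neither mark within 1000 bp of its start (37090136). Inside it, H3K27me3 regions of 300 bp each lay 6765 and 8965 bp after the start, and a 300 bp H3K4me3 region 18865 bp after it. Another 200 bp H3K4me3 region lay 15036 bp before Pcdhac1.

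The shared exons of the alpha group lie between the start of Pcdhac2 and the last alpha end. Past the H3K4me3 region at the Pcdhac2 start, no region of any mark was listed up to that end. After it, H3K27me3 began at 37212101 (500 bp wide) and H3K4me3 at 37251401 (500 bp wide), both before the beta genes. Succinyllysine was not listed over the whole alpha group, in a gap of 334400 bp between 2 regions of 200 bp. Gaps at least this long made up 74.3% of all chromosomes in the succinyllysine list, so a gap of this length was common.

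The beta group had the lowest coverage by H3K4me3 of the 3 groups and a single H3K27me3 region. Pcdhb1, its first gene (37264998 to 37267454), had a 200 bp H3K4me3 region (37264301 to 37264500) that ended 498 bp before the start. A 200 bp H3K27me3 region (37263701 to 37263900) ended 1098 bp before the same start, just outside the 1000 bp window. Between Pcdhb1 and Pcdhb2, H3K4me3 regions of 300 bp (37287301 to 37287600) and 200 bp (37291401 to 37291600) lay 7240 and 3240 bp before the start of Pcdhb2. After them the H3K4me3 list had a gap of 240900 bp that held the starts of the other 21 beta genes, through Pcdhb22 (37518353 to 37521419). Gaps at least as long made up 51.5% of all chromosomes.

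H3K27me3 was as sparse over the beta genes. From Pcdhb1 to Pcdhb22 it had a single region of 400 bp (37418901 to 37419300), between Pcdhb10 and Pcdhb11 and 2118 bp before the start of Pcdhb11. Succinyllysine had 4 regions in this stretch, of 200, 300, 200 and 200 bp, all at 5555 bp or more from any member's start. Of these, 3 lay in the wide space between Pcdhb8 and Pcdhb9 (from 37373501 to 37395300) and the fourth after Pcdhb14 (37455901 to 37456100). None of the 4 touched either histone mark.

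The gamma group held most of the H3K4me3, and it lay on particular starts. The first 4 genes, Pcdhga1, Pcdhga2, Pcdhga3 and Pcdhgb1, had none. The next 5 in order, Pcdhga4, Pcdhgb2, Pcdhga5, Pcdhga6 and Pcdhga7, each had H3K4me3 within 1000 bp of the start. The following 6 (Pcdhgb4, Pcdhga8, Pcdhgb5, Pcdhga9, Pcdhgb6 and Pcdhga10) had none, and then Pcdhgb7 had it alone. Pcdhga11 and Pcdhga12 had none, the C-type genes Pcdhgc3 and Pcdhgc4 had it, and the last gene, Pcdhgc5, did not. Both A-type and B-type genes were among those with and those without the mark: 4 of 12 A-type, 2 of 6 B-type and 2 of 3 C-type genes. Each library came from many cells, so which starts were marked in the same cell was not measured.

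Regions on A-type and B-type starts were small and close to the start. At Pcdhga4 (start 37685237) a 500 bp region ran from 36 bp before to 463 bp after the start. At Pcdhgb2 (start 37689859) a 400 bp region began 42 bp after the start. At Pcdhga5 (start 37694375) regions of 200 and 400 bp abutted each other and ran from 126 to 725 bp after the start. At Pcdhga6 (start 37707101) a 700 bp region and at Pcdhga7 (start 37714834) a 400 bp region covered the start. At Pcdhgb7 (start 37751619) a 700 bp region ran from 118 bp before to 581 bp after it. All of them ended within 725 bp of the start on the side of the gene.

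Of the 3 C-type gamma genes, 2 had H3K4me3 at the start. At Pcdhgc3 (start 37806410) a 6000 bp region (37805001 to 37811000) ran from 1409 bp before to 4590 bp after the start, and 3.38% of the H3K4me3 list was as wide. At Pcdhgc4 (start 37815079) a 3300 bp region (37812901 to 37816200) ran from 2178 bp before to 1121 bp after the start, and 23.5% of the list was as wide. Together they covered 60.1% of the stretch between the starts of Pcdhgc3 and Pcdhgc5. Pcdhgc5 (start 37819546) had no region within 1000 bp of its start.

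**Figure D3:**
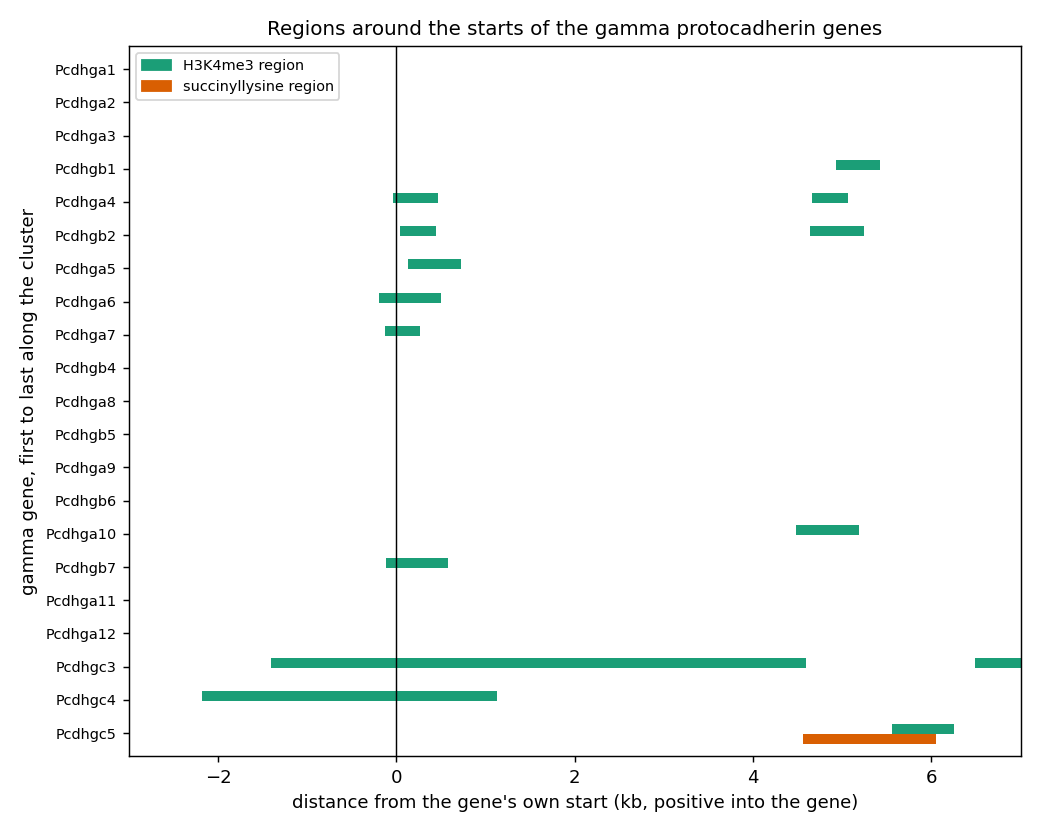
H3K4me3 and succinyllysine regions around the start of each gamma gene, in the order of the genes, by distance from that gene's own start (kb). The rows of 8 genes carry H3K4me3 within 1 kb of the line at 0, and the bars near 5 kb at Pcdhgb1, Pcdhga4, Pcdhgb2 and Pcdhga10 are the regions at the next gene's start.

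Where gamma starts had H3K4me3, it was wider at Pcdhgc3 and Pcdhgc4 than at the A-type and B-type genes, while Pcdhgc5 had none to compare. Over the 8 gamma starts with the mark, the widest region had a median of 600 bp (400 to 6000 bp), and 6 of the 8 were below the 10th percentile of all 9738 annotated starts with H3K4me3, which was 1500 bp. The median of those starts was 3500 bp. At Pcdhga6 and Pcdhgb7, the widest of the A-type and B-type starts, 700 bp was reached or undercut by 2.84% of all such starts. Pcdhgc4 with 3300 bp stood near the middle (47.0% of starts were as narrow), and Pcdhgc3 with 6000 bp near the top (91.3%). The region of Pcdhac2, the C-type alpha gene, was 1900 bp wide.

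**Figure D4:**
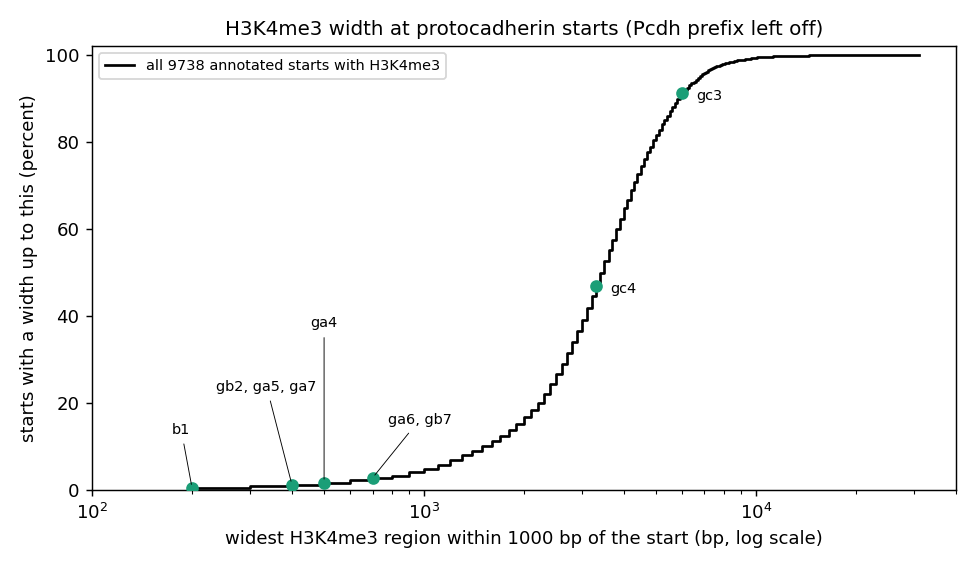
Cumulative share (percent) of the 9738 annotated starts with H3K4me3 by the widest region within 1000 bp of the start (bp, log scale), with the protocadherin starts marked as points. Pcdhb1 and 6 gamma starts sit at 200 to 700 bp at the foot of the curve, and only Pcdhgc4 and Pcdhgc3 reach its body.

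Of all places within 1000 bp of a member, only the shared end of the gamma group had succinyllysine. Between the start of Pcdhgc5 and the common end, which holds the shared exons, a 1500 bp succinyllysine region (37824101 to 37825600) lay 4555 bp after the start of Pcdhgc5. It was the widest of its list in the cluster, and 12.5% of the list was as wide. A 700 bp H3K4me3 region (37825101 to 37825800) shared 500 bp with it. Both lay well before the last gamma end (16273 and 16073 bp), and without exon positions it is not known whether they touched a shared exon. This single region marked all 21 gamma genes with succinyllysine under the rule, and 0 of 21 starts carried the mark. Elsewhere in the genome 8.01% of starts with H3K4me3 also had succinyllysine and 3.87% also had H3K27me3. None of the 8 gamma starts with H3K4me3 had either mark, and so few starts cannot be told apart from these low shares.

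H3K27me3 was not listed anywhere on the gamma genes. The list had a gap of 390400 bp from 37586500 to 37976901 that held all 21 gamma starts and the shared end. Gaps at least this long made up 50.0% of all chromosomes, so its length was common. The 13 gamma genes without H3K4me3 at the start thus had none of the 3 marks there.

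Genes that act on the cluster or resemble it were counted from lists of names. Among all protein-coding genes the whole-gene rule marked 61.3% with H3K4me3, 20.1% with H3K27me3 and 10.1% with succinyllysine. All 10 genes of the list of CTCF and cohesin, which fold the cluster, had H3K4me3 and none had H3K27me3. The region at Ctcf was 7300 bp wide. Succinyllysine was listed at 4 of the 10, namely Rad21 (1200 bp), Stag1 (800 bp), Stag2 (400 bp) and Smc1a (200 bp). All 13 silencers had H3K4me3 and none had H3K27me3, among them Smchd1 (4900 bp), which keeps clustered genes silent, and the DNA methyltransferase gene Dnmt3b (3000 bp). Ezh2, the Polycomb enzyme that writes H3K27me3, was the 1 silencer with succinyllysine (700 bp). This share of 7.69% was near that of all genes. The kinase genes Ptk2 and Ptk2b, whose products bind the shared cytoplasmic part, had H3K4me3 regions of 5200 and 4000 bp.

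Protocadherin genes outside the cluster were counted in the same way. Of 12 such genes 8 had H3K4me3 over the whole gene (66.7%), 5 had H3K27me3 (41.7%) and Pcdh15 alone had succinyllysine (400 bp, 8.33%). Among all protein-coding genes these shares were 61.3%, 20.1% and 10.1%. Those for H3K4me3 and succinyllysine were thus near the share of all genes. Of the 9 with an annotated start in RefSeq, 6 had H3K4me3 there, from 1800 bp at Pcdh17 to 10100 bp at Pcdh7, with 4900 bp at Pcdh10. H3K27me3 lay at the starts of Pcdh8 (6200 bp) and Pcdh10 (3600 bp), so Pcdh10 had both. The 6 H3K4me3 regions at these starts were all wider than those on the A-type and B-type gamma starts, but some were narrower than the 6000 bp at Pcdhgc3. Pcdh11x, Pcdh12 and Pcdh20 had no region of any mark.

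Among other tandem families, the Ugt1a genes have the same layout of separate starts and shared exons. All 6 that are named with a number alone had H3K4me3 and succinyllysine as whole genes, but of their starts only that of Ugt1a1, next to the shared exons, carried these 2 marks (13800 and 14000 bp). The other 5 Ugt1a starts had H3K27me3, which none of the 55 members had at the start. Pcdhac2, outside the naming rule, did have H3K27me3 within 1000 bp of its start. So did Pcdh8 and Pcdh10, outside the cluster. Olfactory receptor genes, which are picked singly in sensory neurons, had H3K4me3 at 22 of 940 starts, H3K27me3 at 126 and succinyllysine at 16. Hox genes had H3K4me3 at 19 of 22 annotated starts, H3K27me3 at 7 and succinyllysine at 7. These 22 leave out many of the 39 Hox genes, of which 24 (61.5%) had H3K27me3 as whole genes. Over all annotated starts 55.7% had H3K4me3, 10.6% H3K27me3 and 4.88% succinyllysine. Over all whole genes the shares were 61.3%, 20.1% and 10.1%. No test was made between these families.

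The labelled cell type was checked against markers by whole genes. Of 12 fibroblast genes 10 had H3K4me3 and none had H3K27me3, with 7800 bp at Col1a1 and 6100 bp at Vim, while Thy1 and Lum had no region of any mark. Of 10 neuron genes 5 had H3K4me3 and 6 had H3K27me3. Those with H3K27me3 included Gad1 (15500 bp) and Rbfox3 (7900 bp, but 1200 bp at its start). Those that went the other way, with H3K4me3 and no H3K27me3, included Syn1 (3300 bp, but 700 bp at its start), Tubb3 (3000 bp) and Map2 (2900 bp). At the 8 annotated neuron starts, 4 had H3K4me3 and 4 had H3K27me3. Of 6 epithelial genes 3 had H3K4me3 and 3 had H3K27me3. Succinyllysine was listed at 6 of the fibroblast, 1 of the neuron and 2 of the epithelial genes. Among all protein-coding genes the same rule marked 61.3% with H3K4me3, 20.1% with H3K27me3 and 10.1% with succinyllysine. The H3K4me3 shares of the neuron and epithelial genes (50.0% each) were not far from that of all genes. No test was made of these counts.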

How the data were processed

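Per the submitters' processing notes, the authors used Bowtie2 (version 2.2.3) and mm10. How regions were called, and how reads that fit several places were treated, is not stated in the labels or lists. The latter matters because protocadherin variable exons resemble each other, and its part in the results was not tested. The deposited lists hold start and end positions on a grid of 100 bp, read as 1-based and inclusive, and some neighbouring regions abut without being merged. Read depth is unknown.

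Gene positions were those of RefSeq on GRCm38.p6 (the same coordinates as mm10), without 13 mitochondrial genes. At least 1 bp of a region had to lie in a gene or the 1000 bp on each side. Starts of other genes were taken from the RefSeq promoter table (17492 genes, outermost start each, none on chromosome 18), which matched 0 of the 55 members, so no sequence is shown. Background shares, covered lengths and widths were computed with Python 3.11.15 and pandas 2.3.3, and the overlap step gave the right answer in 2000 simulated windows. Gaps were counted between listed regions, and each chromosome was taken to run from its lowest to its highest listed coordinate. No statistical test was run.

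The members, the 12 gene lists and the alternatives were chosen with earlier results of these data known. Named genes were the first and last member of each group, every member with succinyllysine or H3K4me3 in its own stretch, those with H3K27me3 there, and genes in or next to the cluster. Up to 5 marked genes per list were named. An own stretch ran from 1000 bp before a start to 1000 bp before the next start of the group (5000 bp from the start for the last member). Region widths of the other tandem families were given for description alone.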

Additional observations from a re-analysis of the deposited data

How the results depend on the processing

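Of 63 recounts of marked members, 50 stayed within 1.5 times the count for whole genes. This number says little about stability. Whole-gene counts of succinyllysine for alpha and beta genes, and of H3K27me3 for beta and gamma genes, were 0 already. The other alpha and gamma counts rest on regions well inside the genes, which a change of window leaves in place. With starts alone the alpha count fell from 12 to 0 for H3K4me3 and from 12 to 0 for H3K27me3, and the gamma count from 21 to 8 for H3K4me3 and from 21 to 0 for succinyllysine. With own stretches the alpha counts were 1 (H3K4me3) and 2 (H3K27me3), and the gamma counts 9 (H3K4me3) and 1 (succinyllysine), the ninth being Pcdhga12, whose stretch reaches the edge of the region at Pcdhgc3. Beta counts were 2 for succinyllysine and 1 for H3K27me3 in own stretches, both from 0, and 2 for H3K27me3 with 2500 bp on each side. The single beta gene with H3K4me3 was lost (0) without a window and when only regions above the list's median width were used. These changes follow from the part of the gene or the regions counted.

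The covered share of the cluster was 2.31% for H3K4me3, and 1.04% for alpha, 0.195% for beta and 7.38% for gamma genes by themselves. For H3K27me3 it was 0.581%, and 1.47%, 0.156% and 0%. For succinyllysine it was 0.395%, with 0% for alpha and 0.833% for gamma genes. With regions wider than the median it was 1.56%, 0.208% and 0.252% for the 3 marks in this order. No paired analysis was possible because the lists hold no values per sample. Depth is unknown, so a missing region does not show that a mark was absent.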

Other observations

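The space between the beta and the gamma genes holds Slc25a2 and Taf7, which do not belong to the family. Taf7, a subunit of the general transcription factor TFIID, had H3K4me3 regions of 700 bp (37641401 to 37642100) and 3000 bp (37642201 to 37645200) and an 800 bp succinyllysine region (37644401 to 37645200) that lay wholly within the latter. It was the only place from Pcdha1 to the gamma end, other than the shared end of the gamma genes, where succinyllysine touched H3K4me3. Slc25a2, a mitochondrial carrier gene, had no region of any mark. In the same space H3K27me3 had 2 regions, succinyllysine 1 more and H3K4me3 1 more (37532501 to 37532700), each 200 bp wide.

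The gene table also lists Gm37013, Gm38666 and Gm38667, protein-coding genes that run from the alpha starts to the last gamma end (36952648 to 37841873 for Gm37013). They fall outside the naming rule. Under the whole-gene count each had all 3 marks, with 20 or 21 H3K4me3, 11 H3K27me3 and 8 succinyllysine regions, and none of the 3 had a region within 1000 bp of either end.

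After the gamma genes lies Diaph1, which encodes an actin-nucleating formin. It had succinyllysine regions of 2500 bp (37877801 to 37880300) and 1900 bp (37883701 to 37885600) inside the gene, neither of which touched H3K4me3, and a 3200 bp H3K4me3 region at its upper end. Both succinyllysine regions were wider than any region of that list within the cluster.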
